A study of Oryzias latipes with 8 samples.

Results

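Expression of 5 regulators of skeletal development was examined in the axial tissue of larval medaka (*Oryzias latipes*, a small laboratory fish). The genes were *bmp4* (ENSORLG00000013304), *twist1* (ENSORLG00000007251), *sox9a* (ENSORLG00000007960), *runx2* (ENSORLG00000010169) and *sp7*, also called *osx* (ENSORLG00000005215). They are the skeletal regulators that the study's primer list pairs with an Ensembl gene identifier, and all 5 were among the 18064 genes counted. Embryos of the inbred orange-red Hd-dR strain were kept from 4 to 6 hpf (hours post fertilization) in 0.1% DMSO, the solvent, or in 1 µM triphenyl phosphate (TPhP, an organophosphate flame retardant and plasticizer) dissolved in DMSO. At 14 dpf (days post fertilization) the trunk of the larvae was freed of head and abdominal tissue, and RNA from a pool of 15 to 20 larvae made 1 library. There were 4 DMSO libraries and 4 TPhP libraries, each taken here as a separate pool. As each library is a pool of whole axial tissue, it mixes bone, cartilage and notochord with any other tissue left on the axis, and fewer cells of a type cannot be told apart from less RNA per cell.

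Much of the bone and cartilage of the fish axis comes from mesenchyme of the sclerotome. In teleosts, as the study states, the first mineralization along the vertebral column is guided by notochord cells. BMP4 is a secreted ligand of the TGF-beta superfamily that drives mesenchymal cells toward cartilage and bone. Twist1, a basic helix-loop-helix factor, marks the mesenchymal progenitors and in mouse restrains Runx2. Sox9, an HMG-box factor with more than 1 copy in teleosts, commits cells to cartilage and in mouse switches on the type II collagen gene. Runx2, a Runt-domain factor, starts osteoblast differentiation, and Sp7, a zinc-finger factor that acts after Runx2 in mouse, is needed for osteoblasts to mature. On the assembly ASM223467v1 the gene named *runx2* spans 3138204 to 3183949 of chromosome 24, *sp7* spans 10479247 to 10484743 of chromosome 5 and *bmp4* spans 7806510 to 7814642 of chromosome 22. The name *twist1* stands at 2 places, on chromosomes 11 and 16, and *sox9a* at none, so these genes were not placed. A read that fits both *twist1* copies equally would have been left out, since only uniquely mapped reads were counted.

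The deposited values were raw gene counts from uniquely mapped reads, and library totals ran from 46561277 to 51501685. Levels are given as CPM, edgeR's counts scaled to library size, with TMM factors that correct for the make-up of each library. The TMM factors did not overlap between the groups, at 0.847 to 1.00 with DMSO and 1.02 to 1.21 with TPhP, so every level below depends on that scaling. One exposed library stood apart. TPhP replicate 1 had 1309 CPM of the mitochondrial gene *cox2*, against 5.56 to 6.71 in the other TPhP libraries and 1721 to 4059 with DMSO, and the values of *twist1*, of its ratio to *runx2* and of *col2a1* are given with and without it. Treatment was tested with edgeR's quasi-likelihood test over 15893 genes, and a gene was called when its p, adjusted by Benjamini-Hochberg, was below 0.05 and it differed by more than 1.5-fold. This test called 0 of the 5 regulators and 0% of all genes, and DESeq2 called 0 of the 5 regulators and 3.82% of the genes to which it gave an adjusted p. At an unadjusted p under 0.05, *runx2* alone of the 5 was higher with TPhP in the edgeR test, as were 9.31% of all genes. The estimates of all 5 regulators were above 0, with a median log2 fold change of 0.16, where the median of all genes was 0.02 and 52.4% of them were above 0.

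The ligand *bmp4* did not separate the groups. The DMSO libraries, replicates 1 to 4, had 32.9, 30.9, 26.3 and 19.6 CPM of *bmp4*, and the TPhP libraries had 22.2, 32.4, 26.3 and 39.1. The lowest value belonged to DMSO replicate 4 and the highest to TPhP replicate 4, and the ranges of the groups covered each other for most of their length. Control pools averaged 27.4 ± 5.88 CPM (SD, n = 4) and exposed pools 30.0 ± 7.37 CPM (SD, n = 4). The log2 fold change of *bmp4* was 0.13 (95% interval −0.35 to 0.61, edgeR adjusted p = 0.7998), so that anything from 0.787-fold to 1.52-fold lay within the interval. Its direction turned on leaving out either of the pools at the ends, with an estimate of −0.026 without DMSO replicate 4 and −0.025 without TPhP replicate 4.

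The progenitor factor *twist1* was the regulator with the widest spread among exposed pools. With DMSO it had 26.5, 33.1, 26.9 and 24.1 CPM, and with TPhP 19.4, 46.8, 37.5 and 44.1. TPhP replicate 1 was therefore the lowest of all 8 libraries, while the other exposed pools each lay above the highest control. Mean levels were 27.6 ± 3.84 CPM (SD, n = 4) in control pools and 36.96 ± 12.3 CPM (SD, n = 4) in exposed pools, a coefficient of variation of 13.9% with DMSO and 33.4% with TPhP. Over all 8 libraries the log2 fold change was 0.42 (95% interval −0.14 to 0.98, edgeR adjusted p = 0.431). Without TPhP replicate 1 *twist1* passed the call as higher, by 0.63 on the log2 scale (edgeR adjusted p = 0.0217, with a standard error of 0.14), in a fit that called 5.86% of all genes higher. DESeq2 without that library also called *twist1* higher, at 0.61 (adjusted p = 0.0030), with 7.52% of genes called higher. The part that the state of TPhP replicate 1 plays in this result was not tested.

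The cartilage factor *sox9a* varied least of the 5 over all 8 libraries, with a coefficient of variation of 13.3%. Among control pools it did not, at 17.5% against 13.9% for *twist1*. Its DMSO values were 28.4, 20.9, 22.9 and 30.4 CPM and its TPhP values 26.1, 28.6, 30.98 and 29.1. The exposed pools lay close together, within the upper part of the control range apart from TPhP replicate 3, and the 2 lowest libraries, DMSO replicates 2 and 3, were controls. Its mean was 25.6 ± 4.498 CPM (SD, n = 4) in control pools and 28.7 ± 2.03 CPM (SD, n = 4) in exposed pools. The log2 fold change of *sox9a* was 0.16 (95% interval −0.16 to 0.48, edgeR adjusted p = 0.615), the narrowest interval among the regulators, from 0.895-fold to 1.40-fold. It stayed between 0.05 and 0.23 when each library was left out in turn.

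The early osteoblast factor *runx2* was the only regulator whose groups did not overlap. It had 6.04, 6.28, 4.41 and 3.42 CPM in DMSO replicates 1 to 4 and 6.49, 7.94, 6.70 and 9.00 CPM in the TPhP libraries. Every exposed pool was above every control pool, though TPhP replicate 1 and DMSO replicate 2 nearly touched, and 3.57% of all genes were higher without overlap in the same way. The raw counts of *runx2*, before any scaling, also stood apart, at 172 to 279 with DMSO and 334 to 481 with TPhP. How many other genes stood apart in raw counts was not computed. With library sizes alone the typical gene also shifted upward with TPhP, by a median of 0.30 on the log2 scale against 0.02 with TMM. The raw counts are therefore not a separate line of evidence. Control pools averaged 5.04 ± 1.36 CPM (SD, n = 4) and exposed pools 7.53 ± 1.17 CPM (SD, n = 4). The log2 fold change of *runx2* was 0.58 (95% interval 0.09 to 1.07, unadjusted p = 0.0243), or 1.497-fold, and it did not pass adjustment over all genes (edgeR adjusted p = 0.240). By this p it stood at place 1601 of 15893 genes. Leaving out each library in turn moved the estimate between 0.41, without DMSO replicate 4, and 0.68, without DMSO replicate 2, and none of these fits called it. The unadjusted edgeR p was 0.073 without DMSO replicate 3 and 0.053 without DMSO replicate 4. It was 0.053 without TPhP replicate 2 and 0.070 without TPhP replicate 4, and stayed under 0.05 in the other leave-one-out fits.

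The later osteoblast factor *sp7* did not follow *runx2* in its separation of the groups. Values were 9.24, 7.29, 6.88 and 6.13 CPM with DMSO and 6.91, 7.91, 6.48 and 10.9 CPM with TPhP. Of the exposed pools only TPhP replicate 4 exceeded the highest control, and TPhP replicates 1 and 3 lay below the control mean. The mean was 7.38 ± 1.33 CPM (SD, n = 4) in control pools and 8.04 ± 1.98 CPM (SD, n = 4) in exposed pools. The log2 fold change of *sp7* was 0.12 (95% interval −0.33 to 0.58, edgeR adjusted p = 0.798), which spans 0.797-fold to 1.49-fold. Without TPhP replicate 4 it was −0.056.

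**Figure D1:**
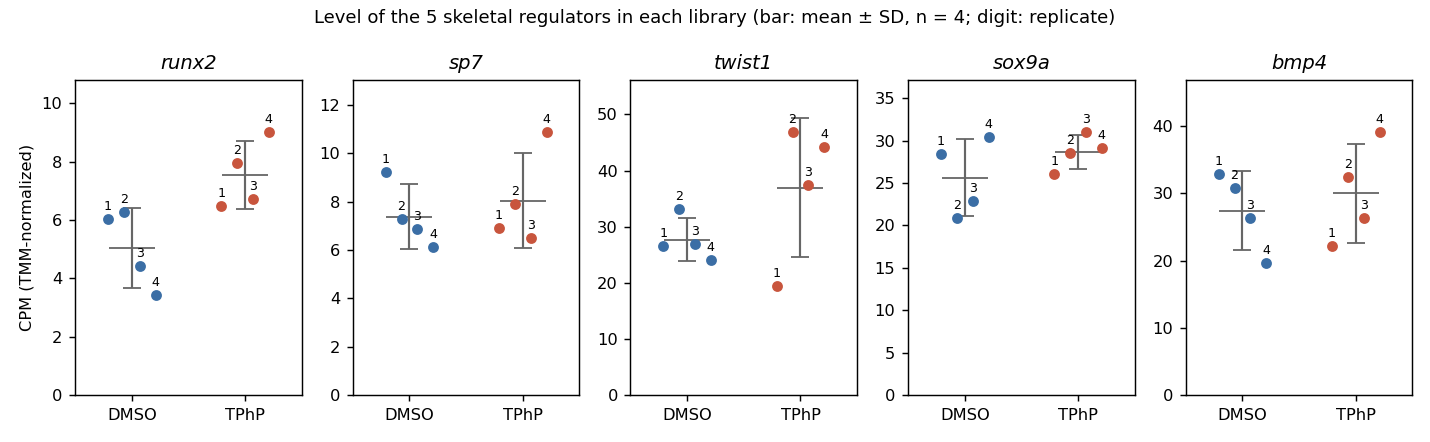
Level of each regulator in CPM (vertical axis, linear from 0) in the 4 DMSO (blue) and 4 TPhP (red) libraries. Points are libraries with their replicate number, and grey bars are the mean ± SD. The groups stand apart for *runx2* alone, where the lowest TPhP library has 6.49 CPM and the highest DMSO library 6.28, and TPhP replicate 1 is the lowest library for *twist1* at 19.4.

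For the levels of single genes, counting error was small beside the differences between pools. From the mean count of a group, reads alone would give a coefficient of variation of 6.67% for *runx2* with DMSO, the least counted case, and 2.23% for *twist1* with TPhP, the most counted. The observed coefficients ran from 7.08% for *sox9a* with TPhP to 33.4% for *twist1* with TPhP.

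Scaling moved all 5 regulators together. With library sizes alone, the log2 fold changes were 0.88 for *runx2*, 0.73 for *twist1*, 0.44 for *sox9a*, 0.43 for *bmp4* and 0.41 for *sp7*. The median of all genes moved likewise, from 0.02 to 0.30, so the regulators kept about their distance from it, and 0 of them were called (edgeR adjusted p = 0.0678 for *runx2*). The qPCR reference of the study, the ribosomal protein gene *rpl13a* (ENSORLG00000014599), was itself lower in the exposed pools, at 2190 ± 98.4 CPM (SD, n = 4) against 2892 ± 456 CPM (SD, n = 4) in the control pools. That difference, −0.40 on the log2 scale, did not pass adjustment (edgeR adjusted p = 0.227). Per 1000 counts of *rpl13a*, *runx2* had 1.72 ± 0.232 counts (SD, n = 4) in control pools and 3.44 ± 0.501 counts (SD, n = 4) in exposed pools. On the same scale *sp7* had 2.56 ± 0.251 counts (SD, n = 4) in control pools and 3.66 ± 0.799 counts (SD, n = 4) in exposed pools, and the lowest exposed pool, at 3.05, was above the highest control, at 2.83. These were the 2 of 5 regulators whose groups did not overlap on the *rpl13a* scale (two-sided exact permutation test, p = 0.0286 for each), where 18.4% of all genes were higher without overlap. For *bmp4*, *sox9a* and *twist1* the groups overlapped, with exact permutation p of 0.0571, 0.0857 and 0.114.

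**Figure D2:**
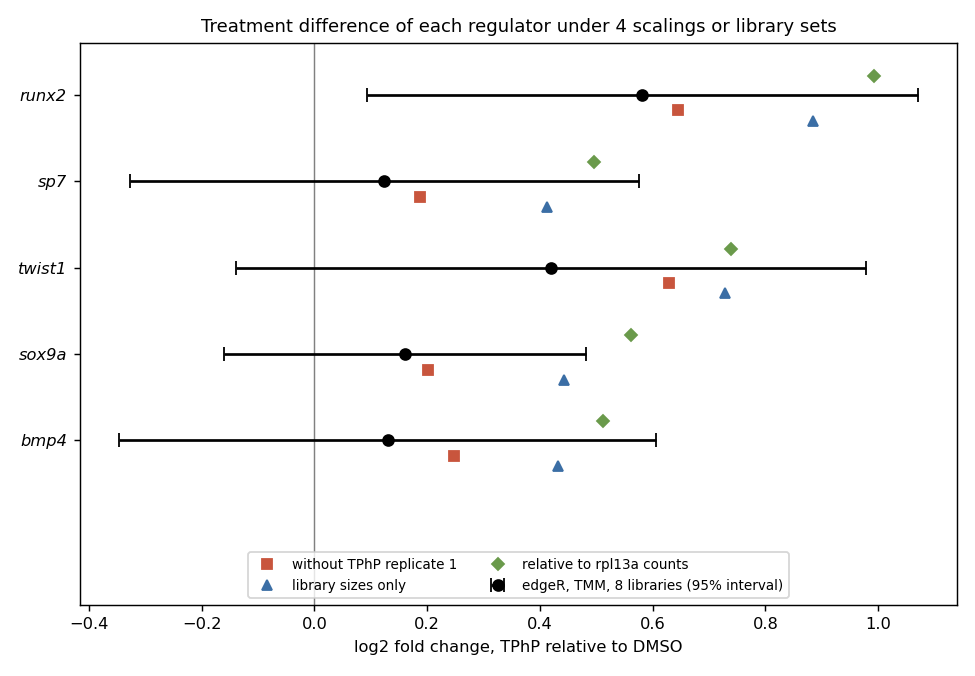
Log2 fold change of each regulator, TPhP relative to DMSO (horizontal axis). Black points with 95% intervals are edgeR with TMM over 8 libraries, red squares leave out TPhP replicate 1, blue triangles use library sizes only and green diamonds are differences of mean log2 ratios to *rpl13a*. The interval excludes 0 for *runx2* alone, from 0.09 to 1.07, and scaling by library size or *rpl13a* shifts every regulator to the right.

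A ratio of 2 regulators within a library needs no scaling factor. All 10 ratios among the regulators were compared by two-sided exact permutation over the 70 splits of 4 against 4 libraries, which cannot give a p below 0.0286. Ratios of counts carry the lengths of both transcripts, so they are read between libraries only. The ratio of *bmp4* to *runx2* counts was 5.44, 4.91, 5.97 and 5.73 in the DMSO libraries and 3.42, 4.08, 3.92 and 4.34 in the TPhP libraries. It was the only one of the 10 ratios whose groups did not overlap, with means of 5.52 ± 0.457 (SD, n = 4) and 3.94 ± 0.387 (SD, n = 4), a log2 difference of −0.48 (exact permutation p = 0.0286, 0.286 after Benjamini-Hochberg adjustment over the 10 ratios). This is also how *runx2* relates to many other genes, as 24.5% of all genes had a lower ratio to *runx2* with TPhP without overlap. Counting error was not small beside the spread within a group for the *bmp4* to *runx2* ratio. In the DMSO libraries the SD of its log2 values was 0.12, where reads alone would give a standard error of 0.095 to 0.12.

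The *sp7* to *runx2* ratio sets the later osteoblast factor against the earlier one. It was 1.53, 1.16, 1.56 and 1.79 with DMSO and 1.07, 0.996, 0.967 and 1.21 with TPhP. Only DMSO replicate 2 and TPhP replicate 4 crossed over. Means were 1.51 ± 0.260 (SD, n = 4) and 1.06 ± 0.108 (SD, n = 4), a log2 difference of −0.50 (exact permutation p = 0.0571, adjusted p = 0.286), and the difference stayed between −0.62 and −0.41 when each library was left out in turn. The edgeR log2 fold change was 0.12 for *sp7* and 0.58 for *runx2*, with a median of 0.02 for all genes. A gene at that median would also fall against *runx2*, so the lower ratio is not particular to *sp7*. For *twist1* to *runx2* the values were 4.39, 5.27, 6.10 and 7.04 with DMSO and 2.99, 5.895, 5.59 and 4.90 with TPhP. TPhP replicate 1 was the lowest library of that ratio as well, and the groups overlapped (log2 difference −0.25, exact permutation p = 0.457, adjusted p = 0.762). The difference was −0.038 without TPhP replicate 1 and −0.15 without DMSO replicate 4. The ratio of *sox9a* to *runx2* had its extreme in a control, with 8.89 in DMSO replicate 4 against 3.23 to 5.19 in the other 7 libraries (log2 difference −0.43, exact permutation p = 0.200, adjusted p = 0.667), and the difference was −0.17 without that control.

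The steadiest ratio was that of *bmp4* to *sp7*. It lay between 3.201 and 4.23 in all 8 libraries, a 1.32-fold range, while *bmp4* itself ranged 1.99-fold and *sp7* 1.78-fold. It averaged 3.70 ± 0.435 (SD, n = 4) in control pools and 3.74 ± 0.419 (SD, n = 4) in exposed pools (log2 difference 0.02, exact permutation p = 0.914, adjusted p = 0.914). The other ratios ranged 1.75-fold to 2.75-fold over the 8 libraries. The *bmp4* to *sp7* ratio was thus picked as the narrowest of 10, and it rests on the same counts as the correlation below. How many genes hold as narrow a ratio to either was not computed. None of the 10 ratios had an adjusted p under 0.05, and 1 had an unadjusted p under 0.05. That 1, *bmp4* to *runx2*, had the smallest p that the exact permutation allows, 0.0286, and its adjusted p was still 0.286. A ratio that separated the groups alone could therefore not pass adjustment, whatever its size.

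**Figure D3:**
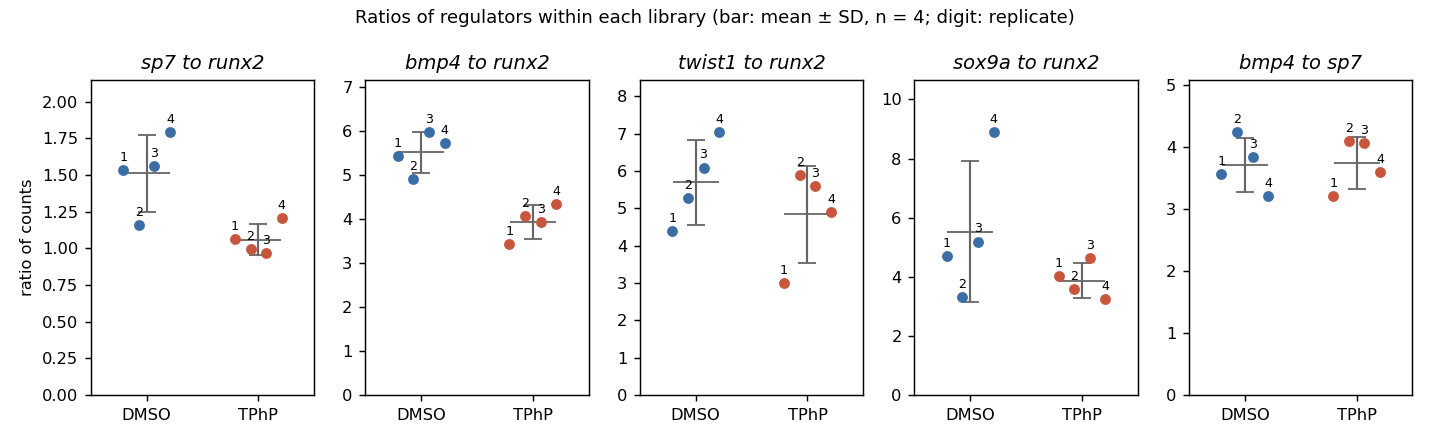
Ratios of counts within each library (vertical axes, linear from 0) for DMSO (blue) and TPhP (red) libraries, with replicate numbers and the mean ± SD in grey. The *bmp4* to *runx2* ratio separates the groups, at 4.91 to 5.97 against 3.42 to 4.34, *sp7* to *runx2* crosses only at DMSO replicate 2 and TPhP replicate 4, and *bmp4* to *sp7* stays between 3.201 and 4.23.

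Of the 10 pairs of regulators, only *bmp4* and *sp7* had a correlation across pools that passed adjustment. Correlations were computed on log2 CPM over the 8 libraries for all 10 pairs, with exact permutation of the pairings. The points share library, depth and TMM factor. *Bmp4* and *sp7* had the highest correlation (Pearson r = 0.88, permutation p = 0.0032, adjusted p = 0.0325; Spearman rho = 0.93, permutation p = 0.0022, adjusted p = 0.0223). Of all other genes, 2.83% had an r with *bmp4* at least as high, and 0.378% had one with *sp7*. Without DMSO replicate 4 and TPhP replicate 4, the libraries farthest from the median of *bmp4*, r was 0.74 (n = 6, exact permutation p = 0.0736). It was 0.85 without DMSO replicate 1 and TPhP replicate 4, the libraries farthest from the median of *sp7*, and 0.87 on deviations from the group means.

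The pairs of *runx2* with *bmp4*, *sp7* and *twist1* had r of 0.77, 0.68 and 0.65, with permutation p of 0.0254, 0.0671 and 0.0818 and adjusted p of 0.127, 0.164 and 0.164. Their rho were 0.52, 0.57 and 0.71, with permutation p of 0.197, 0.151 and 0.0576 and adjusted p of 0.393, 0.378 and 0.288. Without the 2 farthest libraries, which differ from pair to pair, r was 0.26 for *runx2* with *bmp4*, 0.73 with *sp7* and 0.90 with *twist1*. *Runx2* and *bmp4* moved more closely once the group means were taken out, at r = 0.92. The rise was not particular to this pair. On the same deviations *rpl13a* had r of 0.85 with *runx2* and 0.68 with *bmp4*, against −0.21 and 0.25 before. No p and no share of all genes was computed on these deviations. *Bmp4* and *twist1* had r = 0.73 (permutation p = 0.0426, adjusted p = 0.142) and rho = 0.62 (permutation p = 0.115, adjusted p = 0.378). This r was 0.63 without DMSO replicate 4 and TPhP replicate 4. Over the 8 libraries, 10.9% of all other genes had an r with *bmp4* at least as high, and 13.5% had one with *twist1*. *Sp7* and *twist1* had r = 0.46 (permutation p = 0.252, adjusted p = 0.421) and rho = 0.43 (permutation p = 0.299, adjusted p = 0.499). The 4 pairs with *sox9a* had r from −0.07 to 0.20, with permutation p from 0.626 to 0.864, and rho from −0.24 to 0.26, with permutation p from 0.536 to 0.752. With library sizes in place of TMM factors, every r rose or turned positive, to between 0.39 and 0.91.

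DMSO replicate 4 and TPhP replicate 4 lay at opposite ends for 3 of the regulators. DMSO replicate 4 was the lowest of all 8 libraries for *runx2*, *sp7* and *bmp4*, by 0.81, 0.31 and 0.52 on the log2 scale below the mean of the 8 libraries. It was not low for *sox9a*, for which it was the second highest library. TPhP replicate 4 was the highest for the same 3 genes, by 0.57, 0.52 and 0.48 above the mean.

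**Figure D4:**
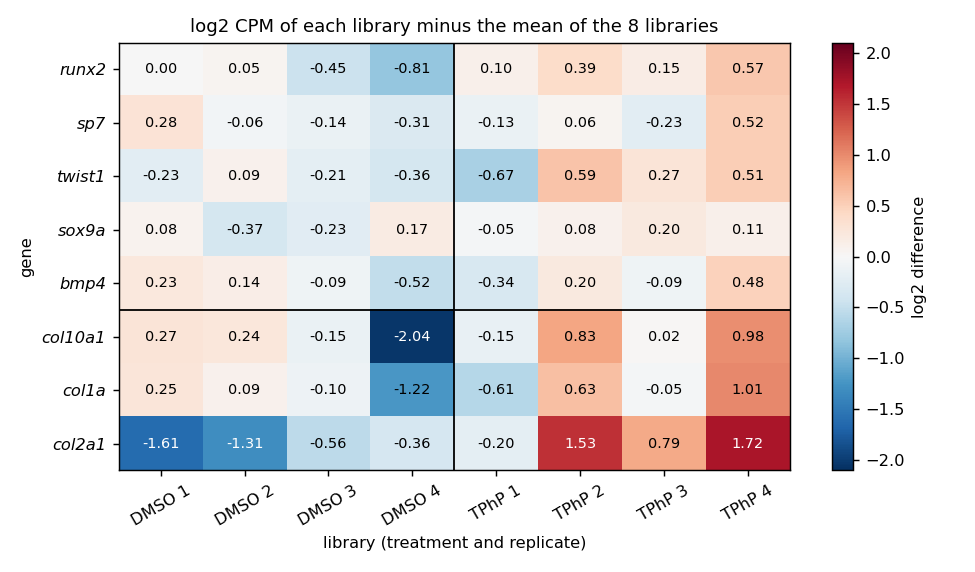
Log2 CPM of each library minus the mean of the 8 libraries, by gene (rows) and library (columns), with DMSO to the left of the vertical line and collagen genes below the horizontal line. DMSO replicate 4 is low for *runx2* (−0.81), *bmp4* (−0.52), *col10a1* (−2.04) and *col1a* (−1.22) but not for *sox9a* (0.17), and TPhP replicate 4 is above the mean in every row.

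The primer list also names 3 collagen genes that skeletal cells lay down as matrix, and all of them could be read. *Col1a* (ENSORLG00000017013) encodes a chain of type I collagen, the main collagen of bone, *col10a1* (ENSORLG00000013436) is made in medaka by young osteoblasts and by late chondrocytes, and *col2a1* (ENSORLG00000012738) encodes the collagen of cartilage and notochord. Over all 8 libraries edgeR called 0 of the 3, which had a median log2 fold change of 0.68, and DESeq2 called *col2a1*. Among the other 17 genes that the study's tables pair with identifiers, the gene most like *bmp4* across the 8 libraries was *col1a* (Pearson r = 0.97, Spearman rho = 0.95), at place 19 of 15892 genes. The r was 0.92 over the 6 libraries left without DMSO replicate 4 and TPhP replicate 4.

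*Runx2* was most like *col10a1* (r = 0.91, rho = 0.71), which stood at place 131 of 15892 genes, and r was 0.85 without DMSO replicates 3 and 4. *Sp7* was most like *bmp4*, at place 60, followed by *col1a* (r = 0.82). For *twist1* the nearest was *col1a* (r = 0.79, rho = 0.79, and r = 0.76 without TPhP replicates 1 and 2), at place 1444. *Sox9a* was nearest to *col2a1*, at r = 0.52 and rho = 0.57, but at place 2605, and r was 0.21 without DMSO replicates 2 and 3. These are descriptions of genes picked as the highest of 17, so no p is given. The 17 were not a varied set. They held *rpl13a*, *nr1d4a*, *nr1d4b* and mitochondrial genes such as *cox2*, and otherwise only the collagen genes and the fellow regulators. Apart from *rpl13a*, the candidates from outside the skeleton had a negative r with every regulator, from −0.85 to −0.21. The pick was thus in effect made among skeletal genes. The gene with the highest r of all to each regulator, at 0.98 to 0.99, is not paired with a name in the sources used here.

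**Figure D5:**
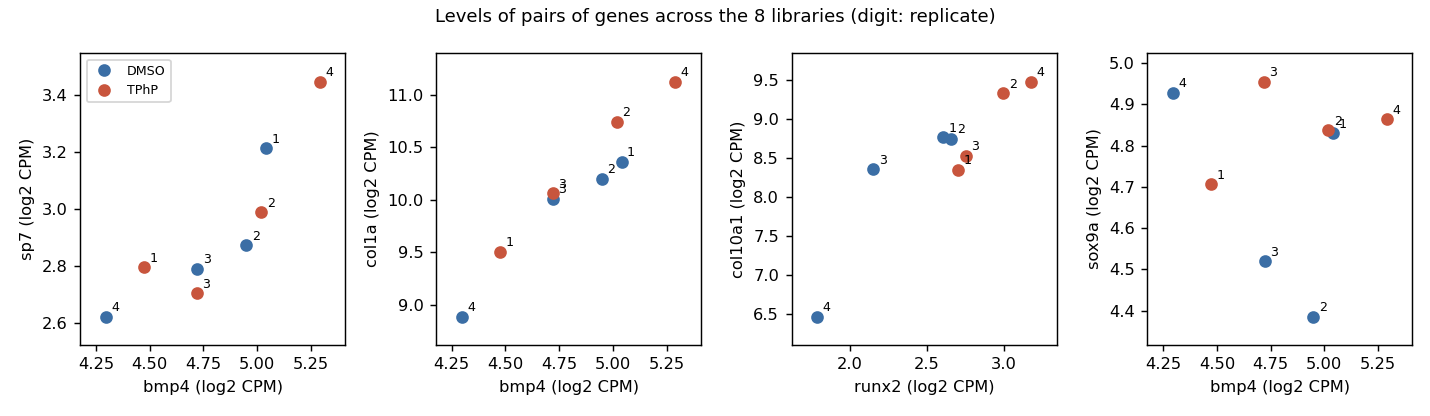
Log2 CPM of pairs of genes across the 8 libraries (blue DMSO, red TPhP, digits are replicates). *Bmp4* lines up with *sp7* (r = 0.88) and with *col1a* (r = 0.97), *runx2* with *col10a1* (r = 0.91, with DMSO replicate 4 far below the rest), and *bmp4* shows no alignment with *sox9a* (r = −0.07).

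Placement by name put *sp7* and the type II collagen gene *col2a1a* on chromosome 5, with 174023 bases between them. The *col2a1* of the primer list was taken as *col2a1a* from its name alone. Whether the distance bears on the levels of either gene was not tested. *Col2a1* had 30.6, 37.8, 63.7 and 73.0 CPM with DMSO and 81.5, 271, 162 and 308 with TPhP, which is 2.00 on the log2 scale (edgeR adjusted p = 0.164, with a standard error of 0.43), against 0.12 for *sp7*. Without TPhP replicate 1 *col2a1* was called, at 2.26 (edgeR adjusted p = 0.0068), and *sp7* was at 0.19.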

How the data were processed

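RNA-Seq was made from poly(A) RNA with a directional kit. The authors checked reads with FastQC, trimmed poor bases, aligned to ASM223467v1 with STAR and deposited raw gene counts of uniquely mapped reads from htseq-count, 1 column per library. The strand option and annotation release of the counting are not given in the sources used here, so overlapping and antisense genes are uncertain.

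Counts were filtered by edgeR's default (15893 of 18064 genes kept, all 5 regulators among them), TMM-scaled and tested by edgeR 4.0.16 under R 4.3.3 in a model that held treatment alone, and the script was tested on simulated data. DESeq2, which the study names in version 1.40.2, was run here in version 1.42.0 as an alternative. Log2 CPM and ratios used a prior count of 2. Intervals are 95% and come from the edgeR fit. Ratios and correlations were computed in Python 3.11.15 with exact permutation.

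Alternatives were other factors and filters, a prior count of 0.5, *rpl13a* as reference, the replicate number as a block and each library left out. DESeq2 without TPhP replicate 1 and the ratios of collagen genes to regulators were added after seeing the data. The regulators, lists and tests were chosen with earlier results of these data known. The rule named the regulators, the other genes of the primer list and the closest gene among those paired with identifiers.

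Identifiers come from the study's supplementary tables, which pair 20 genes, 18 of them read here. *Bglap* and *spp1*, and planned lists of other osteoblast, cartilage, sclerotome, BMP-pathway, muscle, neural, skin, blood and immune genes, were not analysed here because their names were not paired with counted identifiers. The primer list also holds *sox9b*, without an Ensembl identifier. It was not analysed either, and the values of *sox9a* do not cover it. Positions were matched by name in the RefSeq gene table of ASM223467v1. Transcript lengths were not used, so levels are not compared between genes. Replicate numbers follow the library names, and the title of TPhP replicate 4 ends in a different number. The labels give a treatment and a library name only. The study names both technical and biological replicates, 3 to 4 of each, for its RNA-Seq. Which kind a library is was not stated, so each was taken as a separate pool, and p-values measure the spread between libraries.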

Additional observations from a re-analysis of the deposited data

How the results depend on the processing

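Of the 5 regulators, 0 were called with every factor, filter and threshold tried and 0 to 1 in the leave-one-out fits. The 1 was *twist1* without TPhP replicate 1, also with DESeq2. The count over all genes was 618 with DESeq2, from 0 to 1712 in the leave-one-out fits (1712 without TPhP replicate 1, 4 without DMSO replicate 4) and 2304 with DESeq2 without TPhP replicate 1. At an unadjusted p under 0.05 edgeR had 2582 genes over all libraries. Of the 3 collagen genes, 1 was called with DESeq2, 1 with DESeq2 without TPhP replicate 1, and 0 to 1 in the leave-one-out fits. With library sizes only 4 of 10 correlations had an adjusted p under 0.05, and without the 2 farthest libraries 0 did. In the leave-one-out fits *sp7* ran from −0.056 to 0.22 and *bmp4* from −0.026 to 0.25. The log2 difference of the ratio ran from −0.052 to 0.086 for *bmp4* to *sp7*, from −0.065 to 0.24 for *sox9a* to *sp7* and from −0.29 to 0.11 for *bmp4* to *sox9a*. The r of *bmp4* and *sox9a* turned to 0.39 with library sizes only and to 0.022 without the 2 farthest libraries. Those of *sox9a* with *runx2* and *sp7* turned to −0.29 and −0.20 without them, and *sox9a* with *runx2* was −0.38 on deviations from group means. For these the cause was not tested. The direction turned in 3 of 85 alternative estimates of single regulators, all 3 in leave-one-out fits. For each regulator the 85 include the main fit repeated without a fold minimum, which cannot turn, and the ratio to *rpl13a*.

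Same-numbered libraries had correlations of their deviations of 0.071, 0.21, 0.025 and −0.25 for replicates 1 to 4, which show no clear pairing by number. Values from 4 libraries a group cannot exclude a dish or batch shared by libraries of equal number. With a replicate block edgeR called 0 regulators, and the log2 fold change of *runx2* was 0.61 (edgeR adjusted p = 0.369). Mean log2 ratios do not change with pairing. The main limits are 4 libraries a group, taken as separate pools, TMM factors that differ between the groups, and 1 exposed pool that stands apart. Estimates also lean on 1 control, DMSO replicate 4. Without it the log2 fold change was 0.41 for *runx2* and −0.026 for *bmp4*, against 0.58 and 0.13 over all libraries.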

Other observations

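Collagen counts per count of a regulator were read after the other values had been seen, and are given without a test. *Col2a1* per *sox9a* count was 1.08, 1.81, 2.78 and 2.40 in DMSO replicates 1 to 4 and 3.13, 9.49, 5.22 and 10.6 in the TPhP libraries. Every exposed pool, TPhP replicate 1 included, lay above every control, as did the ratios to *sox9a* of 0.768% of all genes. The levels of *col2a1* alone did not overlap between the groups either, and *sox9a* itself ranged 1.49-fold over the 8 libraries. *Col1a* per *sp7* count was 142, 161, 150 and 77.4 with DMSO and 105, 217, 165 and 205 with TPhP, and the groups overlapped. *Col10a1* per *runx2* count was 72.2, 68.4, 74.4 and 25.8 with DMSO and 50.4, 81.0, 55.1 and 79.4 with TPhP, with DMSO replicate 4 alone far below the rest. *Col10a1* per *sp7* count was likewise lowest in DMSO replicate 4, at 14.4 against 47.2 to 81.4 in the other libraries.

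In no group of 4 values, over the 5 regulators and the 10 ratios in each treatment, did one library lie beyond Dixon's 95% critical value (0 of 30 groups, where chance gives about 1.5). TPhP replicate 1, which stands apart in *cox2*, was within this limit for *twist1* too, which does not show that it is ordinary there.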
